A study of Platynereis dumerilii with 97 samples.

Results

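Embryos of the marine annelid Platynereis dumerilii labelled 5 to 8 h after fertilization were compared with embryos labelled 1 to 4 h. Membership followed from the labelled age alone. The later window held the embryos labelled 300, 360, 420 and 480 min (n = 4), and the earlier window those labelled 60, 120, 180 and 240 min (n = 4). These were 8 of the 97 embryos of the series, all of them among the 50 embryos of its first library series, which ran to 51 h. Each library came from 1 whole embryo, made from polyadenylated RNA by CEL-Seq, a method that tags RNA near its 3' end and amplifies it by in vitro transcription. Per the labels' protocols, both windows shared their rearing: eggs from several matings of 1 male and 1 female, kept at 18 °C, with single embryos frozen at hourly intervals. The labels name no strain, genotype or treatment, and do not say which embryos had the same parents. Each window joined 4 embryos of 4 successive hours, so the spread within a window held embryo, library and age, and p-values measured the difference between windows against that spread.

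In spiralian animals such as Platynereis, the fertilized egg divides by spiral cleavage, a stereotyped series of often unequal divisions that sets the early cell lineages. The first divisions run on RNA and protein that the mother loaded into the egg. Transcription from the embryo's own genome starts later, and maternal RNAs are degraded over the same period, a handover known as the maternal-to-zygotic transition. The labels give an age in minutes and no stage, and the identifiers (PT_v1_tr_ followed by a number) are not paired with gene names in the files. The word cleavage could therefore not be checked against marker genes, no list of genes by function was used, and what each transcript encodes is not given.

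The 8 libraries held between 364934 and 1377866 transcript counts, with the fewest at 2 h and the most at 8 h. Levels are given in CPM, counts scaled to a common library total of 1000000 after TMM scaling, a factor that adjusts each total for transcripts that take up an unusual part of a library. Transcript totals without the dominant transcript PT_v1_tr_02502 lay between 189732 counts at 2 h and 645538 at 8 h. Reads that did not align made up 46.8% to 61.7% of all counts of a library. Over 3808 transcripts that passed the filter on low counts, the embryos' profiles had a median Spearman correlation of 0.696 within 1 to 4 h (range 0.663 to 0.746, 6 pairs) and of 0.740 within 5 to 8 h (range 0.706 to 0.790, 6 pairs). Pairs across the windows had a median of 0.702 (range 0.657 to 0.752, 16 pairs), so pairs within the earlier window were no more alike than pairs across. The embryo labelled 4 h was most like that of 8 h, at 0.752.

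**Figure D1:**
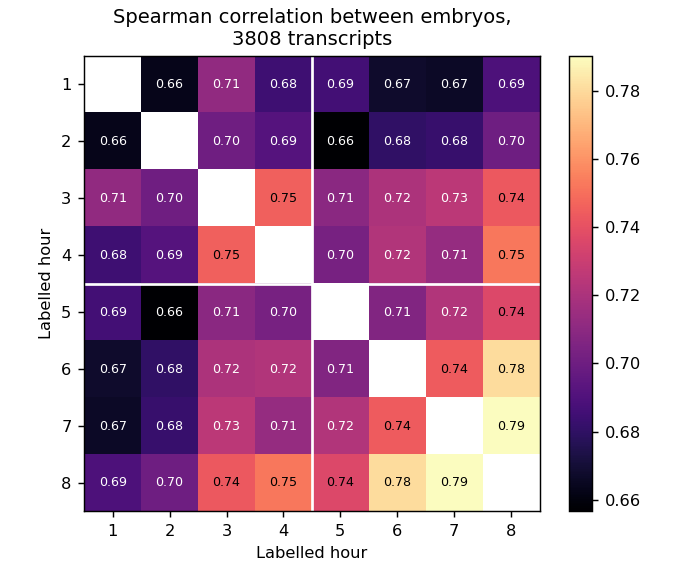
Spearman correlation of log2(CPM + 1) over 3808 transcripts for each pair of the 8 embryos, with the labelled hour on both axes and white lines at the border between 4 h and 5 h. The lowest values are in the rows for 1 h and 2 h, and the highest, 0.790, is between 7 h and 8 h.

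The libraries labelled 1 h and 2 h stood apart from the other 6. The first principal component, with 21.7% of the variance, placed 2 h at -64.1 and the others between -1.12 and 20.8. The second, with 20.8%, placed 1 h at -62.3 and the others between -4.45 and 18.8. These 2 libraries also had 2 of the 3 lowest counts outside PT_v1_tr_02502, 216250 at 1 h and 189732 at 2 h, beside 213384 at 5 h. The part of depth in their position was not tested, and the counts of calls and the differences between windows given next were also computed without them. Added spike-in RNAs with a mean of 20 to 500 counts varied by a median CV of 35.6% between the 8 libraries (28 spike-ins), and transcripts in the same range by 39.2% (2503 transcripts), against about 12.8% and 15.5% from counting alone. Transcripts and spike-ins thus varied by similar amounts between these libraries.

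A single transcript, PT_v1_tr_02502, took up more than any other in every library. Its share of transcript counts was 62.5%, 48.0%, 56.3% and 53.6% at 1, 2, 3 and 4 h, and 68.7%, 64.6%, 46.7% and 53.1% at 5, 6, 7 and 8 h. The range of the earlier window lay inside that of the later one, with means of 55.1% ± 6.04 in the earlier and 58.3% ± 10.1 in the later one (SD, n = 4 each). The difference of 3.21 percentage points was within the spread between embryos (two-sided exact permutation test, p = 0.629, adjusted p = 0.629 over 3 such values), and it was 3.38 points without the libraries of 1 h and 2 h. The next most abundant transcripts by share of counts were PT_v1_tr_01204 with a mean of 1.61%, PT_v1_tr_03010 with 0.930%, PT_v1_tr_01761 with 0.397% and PT_v1_tr_04659 with 0.353%. None of these 5 passed the test between the windows described below, with edgeR adjusted p of 0.978, 0.659, 0.864, 0.618 and 0.943 in this order.

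Counts of all other transcripts per spike-in count were 3.09, 3.31, 2.82 and 2.78 at 1 to 4 h, and 5.08, 2.67, 2.84 and 6.06 at 5 to 8 h. The embryos of 5 h and 8 h lay above all others, and those of 6 h and 7 h lay within or just below the range of the earlier window. The means were 3.00 ± 0.246 and 4.16 ± 1.68 (SD, n = 4 each), a difference of 1.16 that did not pass the two-sided exact permutation test (p = 0.371, adjusted p = 0.557). It was 0.530 without the library of 8 h and 1.36 without those of 1 h and 2 h. The sources used here do not say if the added amount was equal for all embryos, so the ratio need not measure RNA per embryo. At an equal depth of 189732 counts, with PT_v1_tr_02502 left out, 6302, 6138, 6740 and 6756 transcripts were detected at 1 to 4 h and 6569, 6833, 7106 and 7717 at 5 to 8 h. The later window reached higher numbers, and its embryo of 5 h lay inside the range of the earlier one. The difference between the means of 6484 ± 312 and 7056 ± 492 (SD, n = 4 each) was 572 transcripts (two-sided exact permutation test, p = 0.114, adjusted p = 0.343). It was 352 without the library of 8 h and 308 without those of 1 h and 2 h (exact p = 0.229 and 0.533). With 4 embryos in each window the smallest p this test can give is 0.0286.

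**Figure D2:**
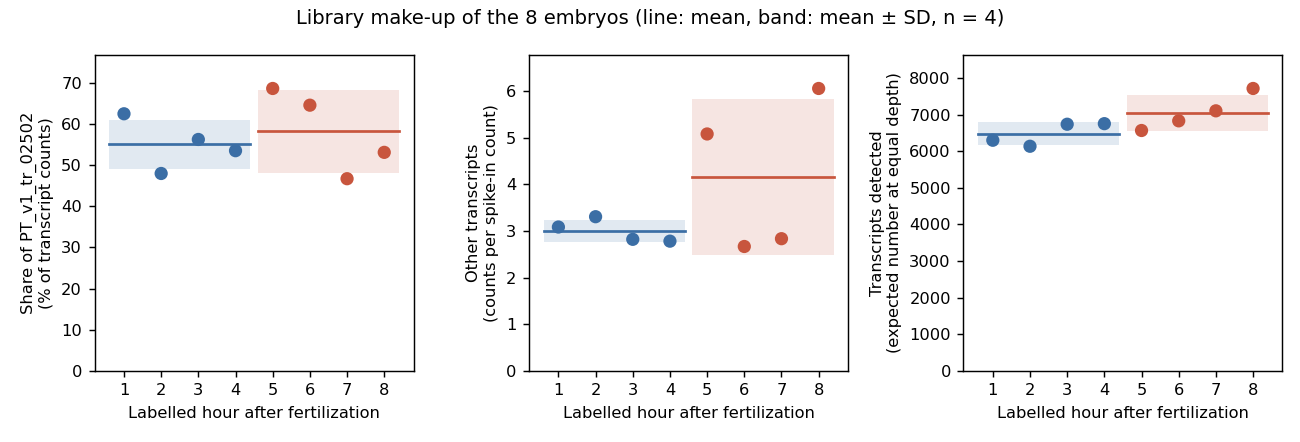
Share of PT_v1_tr_02502 in transcript counts, counts of all other transcripts per spike-in count, and transcripts detected at an equal depth of 189732 counts, by labelled hour. Each point is 1 embryo, lines are window means and bands are the mean ± SD (n = 4), which overlap between 1 to 4 h (blue) and 5 to 8 h (red) in all 3 plots.

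Between the windows a small set of transcripts rose from 0 or low counts in the early embryos, and nearly all others had no call. Of 3808 transcripts tested with edgeR's quasi-likelihood test and Benjamini-Hochberg adjustment (adjusted p under 0.05), 8 were higher at 5 to 8 h, 0.21% of those tested, and 0 were lower, 0.0%. At an unadjusted p under 0.05 there were 284, of which 148 were higher and 136 lower. The median log2 change of all tested transcripts was 0.01. TMM scaling keeps most transcripts near a change of 0, so this median and split cannot show whether levels shifted as a whole. Scaled to spike-ins, whose added amount is not known to be equal, the median was 0.60. It was 0.13 for totals that left out PT_v1_tr_02502, 0.01 for full totals and -0.01 for DESeq2 size factors. The DESeq2 test called 19 higher and 8 lower, and in the edgeR fit of the 8 embryos the lowest adjusted p of a fall was 0.0690. Other edgeR fits, which tested more transcripts, did call falls. These were 15 of 4178 without the library of 2 h and 7 of 9804 without a filter on low counts. A fit of the first library series called 2 of 8416 and a fit of 1 to 12 h 1 of 4493. In the 8 rises, mean levels were between 0 and 23.6 CPM at 1 to 4 h and between 47.1 and 317 CPM at 5 to 8 h. Without the libraries labelled 1 h and 2 h, 2 of 4945 tested transcripts were called, both of them rises among the 8. Leaving out single embryos, with 4061 to 4287 transcripts tested, gave 2 calls without the library of 3 h, 6 h or 7 h. It gave 4 without that of 1 h or 8 h, 5 without 4 h, 22 without 5 h and 28 without 2 h.

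**Figure D3:**
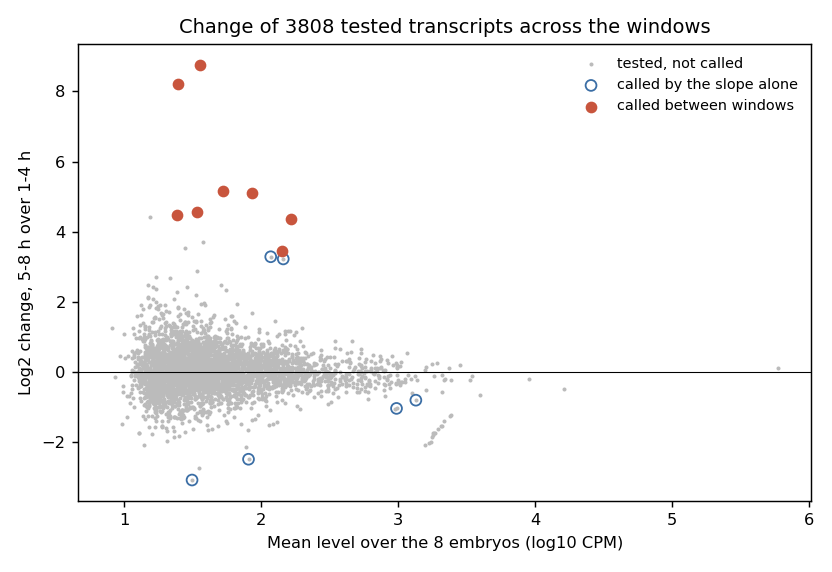
Log2 change between the windows (5 to 8 h over 1 to 4 h) against the mean level over the 8 embryos (log10 CPM) for 3808 tested transcripts, with the 8 calls between windows filled and the 6 calls made by the slope on the hour alone as open circles. The 8 rises called between windows lie at 3.45 or higher on the log2 scale and the 2 rises called by the slope alone at 3.22 and 3.28, where the values of transcripts with 0 early counts depend on the fit, and the slanted row of grey points at a mean near 3 on the x axis and a change of -2.08 to -1.25 is a set of 14 uncalled transcripts that share one profile.

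The clearest rises were PT_v1_tr_00261 and PT_v1_tr_03959, the second of which was singled out after its values were seen. PT_v1_tr_00261 had 0 counts in each of the 4 embryos of 1 to 4 h, and 52.2, 78.2, 105 and 52.7 CPM at 5, 6, 7 and 8 h. Its later embryos thus all lay above a window in which it was not detected, with a mean of 72.1 ± 25.2 CPM (SD, n = 4) from 246 counts. Set against a floor of 3 counts over the whole earlier window, equal to 1.23 CPM, its pooled level was 56.0-fold higher. That ratio makes no allowance for counting error in the 246 counts and was not itself tested. The edgeR test between the windows gave PT_v1_tr_00261 an adjusted p of 0.00325. PT_v1_tr_03959 also had 0 counts at 1, 2, 3 and 4 h, and then 56.0, 52.6, 51.3 and 39.4 CPM at 5, 6, 7 and 8 h. The level was nearly the same in the 4 later embryos, 49.8 ± 7.22 CPM (SD, n = 4) from 168 counts, and it did not climb after 5 h. Its pooled level was 38.2-fold higher by the same untested ratio against the same floor, and the edgeR test between the windows gave an adjusted p of 0.00415. Both calls held under each of the 20 alternatives tried for this comparison, the fit without the libraries of 1 h and 2 h included.

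PT_v1_tr_09440 was at 0 CPM at 1, 2 and 3 h and at 8.83 CPM, from 7 counts, at 4 h. It was then at 54.1, 159, 104 and 95.3 CPM at 5, 6, 7 and 8 h. The windows did not overlap, and its first counts came in the last embryo of the earlier window. Its mean rose from 2.21 ± 4.41 to 103 ± 43.3 CPM (SD, n = 4 each), a log2 change of 5.17 with a standard error (SE) of 0.78 (edgeR adjusted p = 0.0121). Without the libraries of 1 h and 2 h, and under 4 other alternatives of the 20, this call was lost. PT_v1_tr_09440 was also called as rising along the hours, at 1.23 log2 units per hour (SE 0.23, edgeR adjusted p = 0.0426). That slope call was lost under 6 of the 17 alternatives tried for the slope.

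Besides PT_v1_tr_00261 and PT_v1_tr_03959, the window calls that were not called along the hours were PT_v1_tr_07292 and PT_v1_tr_08070. These 2 are given here because the set is small and were chosen after their values were seen. PT_v1_tr_07292 was at 2.22, 8.59, 1.37 and 0 CPM at 1 to 4 h and at 37.3, 39.8, 71.1 and 112 CPM at 5 to 8 h (log2 change 4.56, SE 0.77, edgeR adjusted p = 0.0308). PT_v1_tr_08070 was at 15.6, 0, 0 and 5.04 CPM at 1 to 4 h and at 26.1, 280, 147 and 210 CPM at 5 to 8 h (log2 change 5.11, SE 0.87, edgeR adjusted p = 0.0337). In PT_v1_tr_08070 the embryo of 5 h lay close above that of 1 h, and the large step came between 5 h and 6 h. Each of these 2 calls was lost under 8 of the 20 alternatives, the fit without the libraries of 1 h and 2 h among them.

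A fit of the hour as a straight line on the log2 scale over the 8 embryos asked which transcripts had a trend with the hour. A step between 2 hours can also give such a trend, so a call does not show a steady change. It called 6 rising transcripts, 0.158% of 3808, and 4 falling ones, 0.105% (edgeR quasi-likelihood test, Benjamini-Hochberg adjusted p under 0.05), with 278 at an unadjusted p under 0.05, of which 152 were rising and 126 falling. Of the 10 calls, 4 were also window calls, so that the 2 fits called 14 transcripts in all, 10 that rose and 4 that fell. In each of the 14 the levels of the windows did not overlap, but they were called from these same 8 values, so this is no separate support. Of all tested transcripts, 2.68% did not overlap in the upward direction (102) and 2.15% in the downward direction (82). Of the 10 that rose, 6 had their highest level in the embryo of 8 h. Without the library of 2, 3, 4 and 5 h the 10 slope calls were 24, 22, 20 and 28, of 4178, 4185, 4137 and 4276 tested. They were 5 of 4082 without that of 7 h and 3 of 4061 without that of 8 h.

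The rises with the lowest adjusted p for the slope were PT_v1_tr_08473 and PT_v1_tr_05500, the second of which was singled out after its values were seen. PT_v1_tr_08473 was at 13.3, 8.59, 19.2 and 18.9 CPM at 1, 2, 3 and 4 h and at 46.6, 169, 321 and 731 CPM at 5, 6, 7 and 8 h. It was low and level in the earlier window and higher in each later embryo than in the one before, ending 15.7-fold above its level at 5 h. Its slope was 1.00 log2 units per hour (SE 0.09, edgeR adjusted p = 3.43e-05), a doubling each hour in the straight-line fit. PT_v1_tr_05500 was at 15.6, 25.8, 17.8 and 35.3 CPM at 1 to 4 h and at 50.4, 145, 244 and 606 CPM at 5 to 8 h. It followed the same order, with a 12.0-fold difference between 5 h and 8 h and a slope of 0.80 per hour on the log2 scale (SE 0.08, edgeR adjusted p = 8.25e-05). Both slopes were called under each of the 17 alternatives tried for the slope. Their calls between the windows were less secure, with edgeR adjusted p of 0.0337 for PT_v1_tr_08473 and 0.0447 for PT_v1_tr_05500. They were lost under 8 and 11 of the 20 alternatives for that comparison, and both without the libraries of 1 h and 2 h.

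PT_v1_tr_00495 was at 0, 2.15, 0 and 5.04 CPM at 1 to 4 h and at 29.8, 38.4, 34.2 and 85.8 CPM at 5 to 8 h. It stepped up at 5 h, stayed level to 7 h and was highest at 8 h, and its slope was 1.01 per hour on the log2 scale (SE 0.18, edgeR adjusted p = 0.0276). The slope was lost under 5 of 17 alternatives, the fit without the libraries of 1 h and 2 h among them. PT_v1_tr_00495 was also called between the windows (edgeR adjusted p = 0.0352), a call lost under 8 of the 20 alternatives. Besides PT_v1_tr_09440, given above, the remaining 2 rises by slope were PT_v1_tr_00603 and PT_v1_tr_05441, named after their values were seen. PT_v1_tr_00603 was level at 26.7, 21.5, 21.9 and 18.9 CPM at 1 to 4 h and still at 31.7 CPM at 5 h, before 86.8, 251 and 482 CPM at 6, 7 and 8 h (slope 0.70 per hour, SE 0.10, edgeR adjusted p = 0.00565). PT_v1_tr_05441 was at 20.0, 43.0, 45.2 and 6.30 CPM at 1 to 4 h, followed by 63.4, 81.1, 300.2 and 602 CPM at 5 to 8 h (slope 0.68 per hour, SE 0.12, edgeR adjusted p = 0.0266). At 5 h both lay above all earlier embryos, but in 1 embryo and on 34 counts or fewer, so a rise by 5 h is not shown. The first was at 31.7 CPM (17 counts) against at most 26.7 CPM (12 counts). The second was at 63.4 CPM (34 counts) against at most 45.2 CPM (33 counts). Neither transcript was called between the windows, with edgeR adjusted p of 0.0735 and 0.278. Their slope calls were lost under 2 and 6 of the 17 alternatives, both without the library of 8 h.

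**Figure D4:**
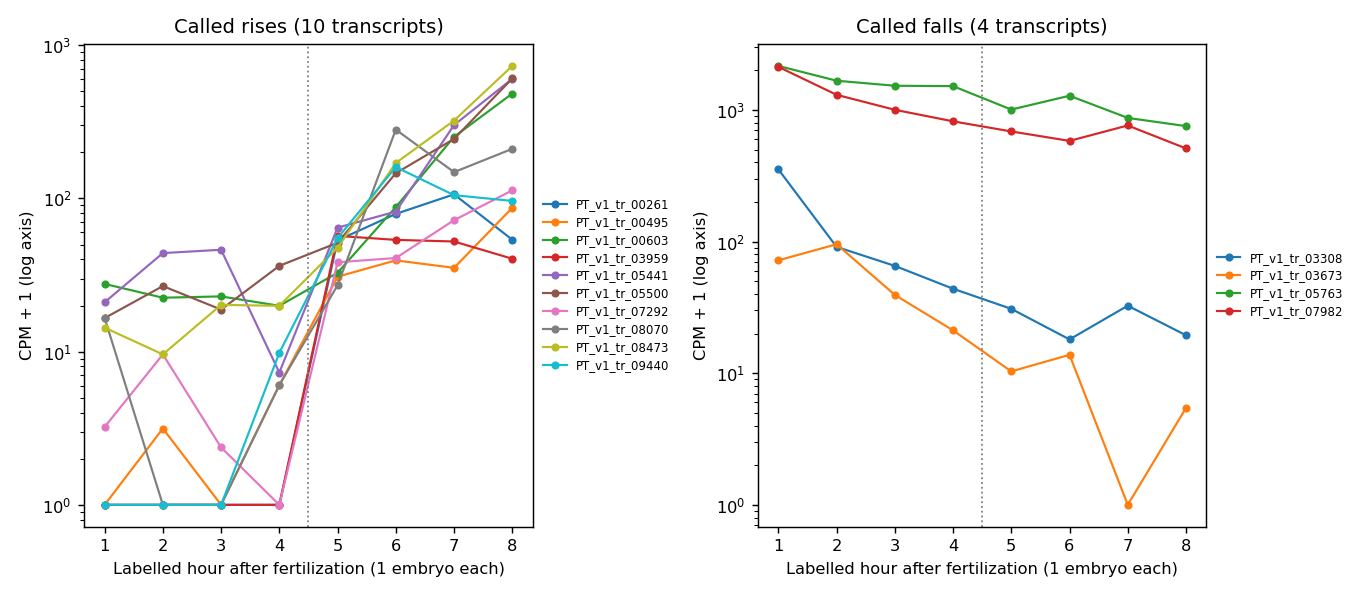
Level of the 10 called rises (left) and the 4 called falls (right) in each of the 8 embryos, as CPM + 1 on a log axis against the labelled hour, with a dotted line at the border between the windows. Each point is 1 embryo, and in every transcript the points right of the border lie wholly above (left plot) or wholly below (right plot) those on its left.

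Of the 4 falls, 2 were of transcripts that were abundant in the first embryo and still present at 8 h. PT_v1_tr_07982 was at 2129, 1304, 1003 and 820 CPM at 1, 2, 3 and 4 h and at 686, 582, 762 and 510 CPM at 5, 6, 7 and 8 h. It fell with each hour to 6 h, and its slope was -0.25 per hour on the log2 scale (SE 0.04, edgeR adjusted p = 0.0193). PT_v1_tr_05763, named after its values were seen, had means of 1720 ± 303 CPM at 1 to 4 h and 979 ± 228 CPM at 5 to 8 h (SD, n = 4 each) and a slope of -0.20 per hour (SE 0.04, edgeR adjusted p = 0.0276). PT_v1_tr_03308 was at 353, 90.2, 64.4 and 42.9 CPM at 1 to 4 h and at 29.8, 17.1, 31.6 and 18.4 CPM at 5 to 8 h (slope -0.55 per hour, SE 0.09, edgeR adjusted p = 0.0142). The embryo of 1 h stood far above the rest, and the others also declined in order to 6 h. PT_v1_tr_03673 was at 71.1, 94.5, 38.4 and 20.2 CPM at 1 to 4 h and at 9.33, 12.8, 0 and 4.45 CPM at 5 to 8 h, from 120 and 21 counts, and had a slope of -0.72 per hour (SE 0.14, edgeR adjusted p = 0.0461). All 4 slopes were lost without the library of 1 h and without that of 8 h. Without those of 1 h and 2 h, 0 falls and 21 rises were called of 4945 tested. The falls of PT_v1_tr_03308, PT_v1_tr_07982, PT_v1_tr_05763 and PT_v1_tr_03673 were lost under 4, 6, 8 and 10 of the 17 alternatives. With total counts or spike-ins as the scale, 1 fall was called in place of 4. Totals without PT_v1_tr_02502 gave 2 falls and the library total as a covariate 0. DESeq2 size factors gave 5, the DESeq2 test 18, and edgeR without a filter 13 of 9804 tested.

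None of these falls passed the test between the windows in the fit of the 8 embryos. Nearest to it was PT_v1_tr_03075, which was not called: it was at 284, 168, 159 and 158 CPM at 1 to 4 h and at 70.9, 72.6, 60.6 and 77.5 CPM at 5 to 8 h. The later embryos lay close together at less than the lowest earlier value, and the log2 change was -1.44 (SE 0.28, edgeR adjusted p = 0.0690). This fall was called by DESeq2 (adjusted p = 0.000633), and by edgeR without a filter (0.0141), in the fit of 1 to 12 h (0.0368) and without the library of 2 h (0.0422), while over the 20 alternatives its adjusted p reached 0.577. Without the libraries of 1 h and 2 h its change was -1.18 (edgeR adjusted p = 0.251). For PT_v1_tr_03308 the window difference of -2.50 on the log2 scale (SE 0.59) had an edgeR adjusted p of 0.191. It was -1.45 without the library of 1 h and -1.17 without those of 1 h and 2 h. The fall was called by DESeq2 (adjusted p = 0.00477) and by edgeR without a filter (0.0468) and in the fit of the first library series (0.0162), and its adjusted p over the 20 alternatives reached 0.677.

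More transcripts appeared than disappeared at these depths, counting detection alone over the whole table of 10908. There were 34 transcripts with 0 counts in all 4 embryos of 1 to 4 h and at least 1 count in each embryo of 5 to 8 h, and 2 with the reverse pattern. The later window had 1463610 counts outside PT_v1_tr_02502 and the earlier one 1086774, a difference in depth that moves with this result and whose part in it was not tested. The 34 had between 7 and 251 counts in the later window, with a median of 31, and 2 of them, PT_v1_tr_00261 and PT_v1_tr_03959, passed the filter on low counts. Of the 34, 17 were also detected in each embryo of 9 to 12 h, and 1 had 0 counts in all of those. Of the reverse pattern the higher was PT_v1_tr_08077, with 2, 3, 9 and 3 counts at 1, 2, 3 and 4 h and 0 counts at 5 to 8 h. Its pooled level from 17 counts was 8.30-fold above the floor of 3 counts in the later window, without allowance for counting error in the 17. It was too low to be tested. PT_v1_tr_08077 was detected again after 8 h, at a median of 16.2 CPM at 9 to 12 h and 16.9 CPM at 25 to 30 h. On the same scaling, over 50 embryos, its median at 1 to 4 h was 5.51 CPM. Of the 2 with this pattern, 0 were detected in each embryo of 9 to 12 h, and 1 had 0 counts in all of those. Another 4176 transcripts were detected in all 8 embryos and 1104 in none.

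Pairs of hours gave no calls in the fit given here, which with 2 embryos in each bin cannot show that no step occurred. In a fit of the 4 successive bins of 2 embryos each, 0 transcripts were called by edgeR (adjusted p under 0.05) between 1 to 2 h and 3 to 4 h, between 3 to 4 h and 5 to 6 h, or between 5 to 6 h and 7 to 8 h. The lowest adjusted p were 0.256, 0.115 and 0.756, and at an unadjusted p under 0.05 there were 220, 203 and 131 transcripts.

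The later embryos of the same library series show where the called transcripts went after 8 h. These medians are of CPM scaled over the 50 embryos of that series, so they differ slightly from the levels above, and they are a description without a test. Of the 10 rises, 7 had a higher median at 9 to 12 h than at 5 to 8 h. The highest median fell in the window of 5 to 8 h for 2 of them, of 9 to 12 h for 2, of 13 to 17 h for 4 and of 25 to 30 h for 2, and by 43 to 51 h 8 of the 10 were under 10% of their own highest median. Most of the 10 were thus higher after 8 h than before it and low again by 43 h.

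PT_v1_tr_03959 had its highest level early, with medians of 57.3 CPM at 5 to 8 h, 25.7 CPM at 9 to 12 h, 2.3 CPM at 13 to 17 h and 0 CPM at 18 to 23 h. It was detected again in every embryo of 31 to 36 h, at a median of 9.19 CPM and at least 5.04 CPM. PT_v1_tr_00261 remained longer, with medians of 74.7, 64.1, 96.2 and 27.0 CPM in the same 4 windows and 0 CPM in every embryo of 37 to 42 h. At 43 to 51 h its median was 0 CPM and its highest value 45.5 CPM, or 3.49 CPM without the libraries labelled 21 h and 48 h. PT_v1_tr_08473 had its highest median, 981 CPM, at 9 to 12 h, and was still at 302 CPM at 43 to 51 h. PT_v1_tr_05500 reached 2180 CPM at 13 to 17 h and 2351 CPM at 25 to 30 h, from 22.8 CPM at 1 to 4 h, and ended at 15.4 CPM. The later levels of PT_v1_tr_08473 and PT_v1_tr_05500 therefore parted after 12 h. PT_v1_tr_00603 and PT_v1_tr_05441 had medians of 1058 and 1017 CPM at 13 to 17 h and of 8.3 and 6.9 CPM at 43 to 51 h, and over the 42 embryos from 9 to 51 h they had the highest Spearman correlation of any pair of the 10 rises, 0.943, in log2 levels that share libraries and depth.

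Of the 4 falls, 3 had their highest median at 1 to 4 h. PT_v1_tr_05763 had medians between 673 and 1014 CPM in each window from 5 to 36 h, then 290 CPM at 37 to 42 h and 122 CPM at 43 to 51 h, while PT_v1_tr_07982 lay between 351 and 602 CPM in all windows after 8 h. PT_v1_tr_03308 came back, from 15.1 CPM at 13 to 17 h to 235 CPM at 43 to 51 h, above its median of 81.0 CPM at 1 to 4 h. Leaving out the libraries labelled 21 h and 48 h, which were least like the embryos of neighbouring hours in their windows, changed the window of the highest median for 0 of the 16 transcripts followed.

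**Figure D5:**
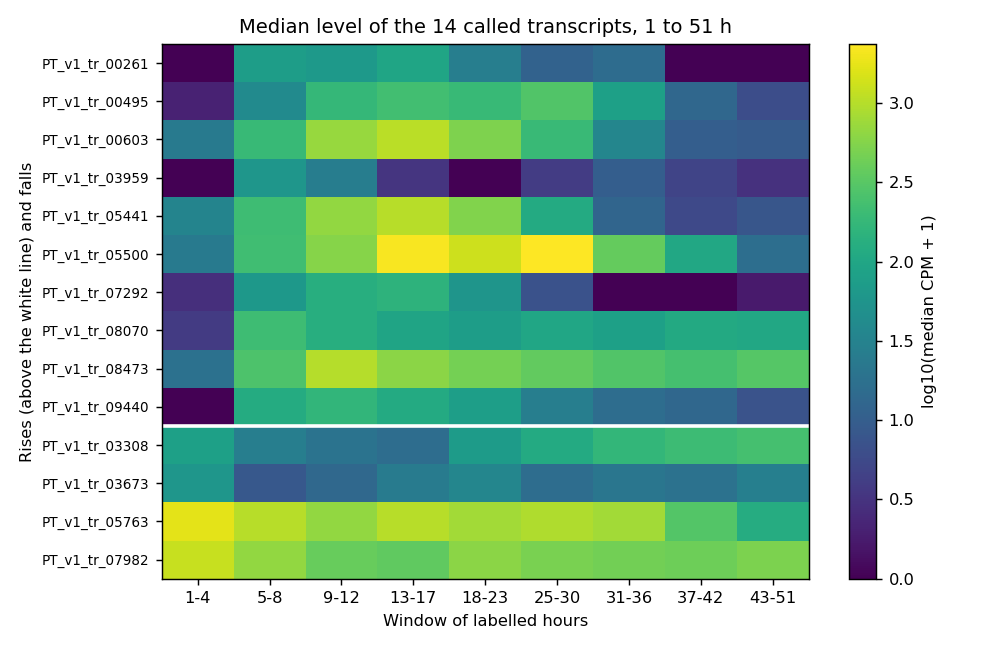
Median level, as log10(median CPM + 1), of the 14 called transcripts in 9 windows of labelled hours from 1 to 51 h, with rises above the white line and falls below it. Most rises are brightest between 9 and 30 h and dark again by 43 to 51 h, and PT_v1_tr_03308 brightens after 18 h.

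The transcripts whose levels did not overlap between the windows were mostly uncalled, and their later medians are given as a description. The 102 with every embryo of 5 to 8 h above every embryo of 1 to 4 h had a median level of 24.3 CPM at 1 to 4 h, 61.7 CPM at 5 to 8 h and 61.1 CPM at 9 to 12 h. For the 82 in the other direction these values were 83.6, 46.4 and 53.6 CPM, and for all 3808 tested transcripts 38.6, 42.6 and 37.8 CPM. In the embryos of 9 to 12 h, which played no part in choosing them, both sets remained nearer to their level at 5 to 8 h than to that at 1 to 4 h.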

How the data were processed

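The values the authors deposited are raw counts, whole numbers for each transcript in each embryo. The tools listed per the submitters' processing notes are HTSeq 0.5.4p3, CASAVA 1.8 and Bowtie2 2.1.0; their roles, settings and reference are not given in the sources used here. No molecular identifiers are named, so counts can hold amplification copies, and floors and detection cover counting error only. In the 8 embryos used, 5 summary rows held 56.5% of all counts and 92 spike-ins held 4.83%; both stayed out of library sizes and tests.

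Embryos were grouped by labelled age. Counts were tested with edgeR 4.0.16 (R 4.3.3; TMM scaling, filterByExpr, robust quasi-likelihood test, Benjamini-Hochberg adjusted p under 0.05) between the windows, along the hour and between bins of 2 hours, each on the 8 embryos. SE was computed as |log2 change| / √F. Single values were compared with two-sided exact permutation tests over the 70 splits (scipy 1.17.1). Detection was counted as an expectation over random thinning to equal totals. The scripts were tested on simulated counts with known changes.

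Transcripts were named by a rule: the 2 largest rises and falls among calls with at least 50 CPM, or those of lowest p where there were none, the 5 of highest mean share, and the highest of those at 0 in one window; others are marked where they appear. The windows, lists and rules were chosen with earlier results of these data known. Alternatives were other scalings (DESeq2 1.42.0 size factors, totals, spike-ins), other filters, the DESeq2 test, the library total as a covariate, other embryos in the fit, and each embryo left out.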

Additional observations from a re-analysis of the deposited data

Results flagged for a closer look

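Among 38 groups of 4 embryos checked, 4 had 1 embryo whose gap to the nearest of the others was above Dixon's 95% critical value as a share of the whole range. About 1 in 20 groups drawn from a single normal distribution pass that value. The embryos of a group here were of 4 successive hours, so that rate need not hold for them. In PT_v1_tr_09440 the embryo of 4 h, at 8.83 CPM, was the only one of 1 to 4 h with counts. In PT_v1_tr_03075 the embryo of 1 h, at 284 CPM, stood above the other 3 of its window, which were within 158 and 168 CPM. In PT_v1_tr_03308 the embryo of 1 h, at 353 CPM, stood above the rest, the next of which was at 90.2 CPM. In PT_v1_tr_00495 the embryo of 8 h, at 85.8 CPM, stood above the other 3 of 5 to 8 h, the highest of which was at 38.4 CPM. The embryo of 1 h, which gave 2 of the 4, was one of the 2 libraries set apart in the principal components, and its part in these values was not tested.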

How the results depend on the processing

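The 8 window calls were 8 or 9 under DESeq2 size factors, total counts, totals without PT_v1_tr_02502 and a stricter filter. They were 18 with spike-in scaling, which moved the median log2 change of all transcripts to 0.60. The DESeq2 test gave 27, and adjusting for the library total gave 2. Other fits tested more transcripts than 3808. They gave 41 of 9804 without a filter, 20 of 3988 without the hours 4 and 5, and 72 of 8416 in 1 fit of the first library series. A fit of 1 to 12 h gave 34 of 4493. The 10 slope calls were 30 with spike-in scaling, 60 of 9804 without a filter and 37 with the DESeq2 test (19 rising, 18 falling). Adjusting for the library total gave 2, and total counts gave 8 rising and 1 falling. Leaving out each embryo gave 2 to 28 window calls (28 without 2 h, 13 of them higher and 15 lower). Slope calls were then 3 to 28 (28 without 5 h, 3 without 8 h), and 4061 to 4287 transcripts were tested. An alternative chosen after seeing the data, leaving out the libraries of 1 h and 2 h, gave 2 window calls and 21 slope calls of 4945 tested. The 0 calls between bins became 21, 15 and 12 of 9804 without a filter, and 1 and 9 in the first pair and the second with spike-in scaling. The difference between the windows in the share of PT_v1_tr_02502 ranged from -0.258 to 7.06 percentage points over the embryos left out, with the negative value without 5 h; that in other counts per spike-in count ranged from 0.530 to 1.66, and that in transcripts detected from 352 to 735. The cause of these changes was not tested. No paired analysis was possible because the labels give the windows no shared replicate numbers. Depth limits transcripts of a few CPM, which had a handful of counts in each embryo.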

Other observations

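A set of 14 transcripts, seen in the plot of all changes and chosen for its shape, had nearly one and the same profile over the 8 embryos. Each had a Pearson correlation of CPM of at least 0.997 with PT_v1_tr_01000, and the next transcript of the 3808 had 0.973. The median level of the 14 was 3909, 507, 5604 and 1434 CPM at 1, 2, 3 and 4 h and 788, 578, 1215 and 855 CPM at 5, 6, 7 and 8 h. The embryos of 1 h and 3 h were high, that of 2 h was lowest, and the windows overlapped. PT_v1_tr_01000 was the lowest of the set in most embryos, at 3658, 43.0, 5275 and 1144 CPM at 1 to 4 h, and the others lay above it by a median of 145 to 473 CPM in every embryo, whatever its own level. The gaps between the 14 thus did not scale with their level. Together they made up 11.6% of the counts outside PT_v1_tr_02502 at 1 h and 16.6% at 3 h, against 1.78% at 2 h and between 2.37% and 5.21% in the other 5 embryos. Log2 changes between the windows were -2.08 to -1.25, none was called (edgeR adjusted p 0.611 to 0.740), and all 14 were among the 149 tested transcripts with a log2 change under -1. Over the 42 embryos from 9 to 51 h the other 13 had Spearman correlations of 0.868 to 0.987 with PT_v1_tr_01000, whose level ran from 72.8 to 13933 CPM with the highest value in the library labelled 21 h. Whether reads are shared between these transcripts was not tested, since no transcript sequences were used here.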
